A study of Homo sapiens with 3 samples.

Results

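The 7 mitochondrially encoded complex I genes, MT-ND1, MT-ND2, MT-ND3, MT-ND4, MT-ND4L, MT-ND5 and MT-ND6, were taken by gene symbol from a transcript table that held 35880 symbols in all, and each matched exactly 1 transcript. The cells were HEK293T, a human line of embryonic kidney origin that expresses SV40 large T antigen. They were untreated, grown to 70% confluence in high-glucose medium with 10% serum, and formed a single group of 3 libraries, labelled biological replicates 1, 2 and 3, made from oligo-dT captured RNA with a directional kit. No source used here says whether the replicates were separate cultures, so the p-values rest on library-to-library spread alone, part or all of which could be technical. Levels are in TPM, a unit of transcript abundance in which the reads of a transcript are divided by its effective length and scaled to the library. The deposited estimated counts summed to 33184885, and depth estimated from the spacing of low values was 33100000, 33600000 and 33500000 reads in replicates 1, 2 and 3. Of the markers set for the line, NEFM, NEFL, INA, LIN28B, VIM and CDH2 ranged from 18.02 to 401 TPM and PAX2 was at 1.57 TPM, while 3 blood markers summed to at most 0.448 TPM and 3 endothelial markers to at most 0.390 TPM in any library.

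Complex I is the first enzyme of the respiratory chain. It passes electrons from NADH to ubiquinone and pumps protons across the inner mitochondrial membrane. Its mitochondrially encoded subunits form the core of the membrane arm, and all its other subunits are encoded in the nucleus. The mitochondrial genome is transcribed from both strands as long precursors, which are cut mostly at tRNAs. Most of the resulting mRNAs have almost no untranslated sequence. Most also carry a short poly(A) tail, whereas MT-ND6 mRNA is known for lacking a stable one.

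Annotation by GENCODE release 29 on hg38 places 6 members on the plus strand of the mitochondrial chromosome and MT-ND6 on the minus strand, and each transcript is a single exon that is coding throughout apart from the stop codon. MT-ND1 lies at chrM:3307-4262, MT-ND2 at chrM:4470-5511, MT-ND3 at chrM:10059-10404, MT-ND4L at chrM:10470-10766, MT-ND4 at chrM:10760-12137, MT-ND5 at chrM:12337-14148 and MT-ND6 at chrM:14149-14673. The 3′ ends are shown because they differ in how much of a stop codon the genome encodes. The last 24 bases of each transcript are given, 5′ to 3′ on its own strand, with the encoded stop codon, or the encoded part of it, in capitals.
MT-ND1: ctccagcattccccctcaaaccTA
MT-ND2: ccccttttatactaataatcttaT
MT-ND3: aaaaaggattagactgaaccgaaT
MT-ND4: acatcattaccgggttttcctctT
MT-ND4L: aacctaaacctactccaatgcTAA
MT-ND5: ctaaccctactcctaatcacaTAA
MT-ND6: attgagattgctcgggggaatAGG
For 4 members (MT-ND1, MT-ND2, MT-ND3 and MT-ND4) the transcript length was not a multiple of 3, and the sequence ended in T or TA, a partial stop codon that a poly(A) tail is known to complete. MT-ND4L and MT-ND5 ended in a whole TAA, and MT-ND6 ended in AGG, which stands in place of TAA or TAG.

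MT-ND4L and MT-ND4 are carried on a shared, bicistronic mRNA, and their reading frames overlap by 7 bases. The junction is shown because the levels of this pair are set side by side further on. Capitals mark the shared bases, at the end of MT-ND4L (chrM:10737-10766) and at the start of MT-ND4 (chrM:10760-10789).
MT-ND4L: gtacataacctaaacctactccaATGCTAA
MT-ND4: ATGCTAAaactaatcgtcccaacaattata
The overlap is shorter than the 31-base words by which reads are usually matched to transcripts in such quantification, so no word of that length lies inside it.

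The strand of each gene shows in its base composition. The 6 plus-strand transcripts held 29.5% to 36.0% C and 9.50% to 12.1% G. MT-ND6, read from the opposite strand, held 7.05% C, 35.6% G and 37.7% T. The G + C content of MT-ND6 was 42.7%, inside the 40.2% to 47.7% range of the other members.

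**Figure D1:**
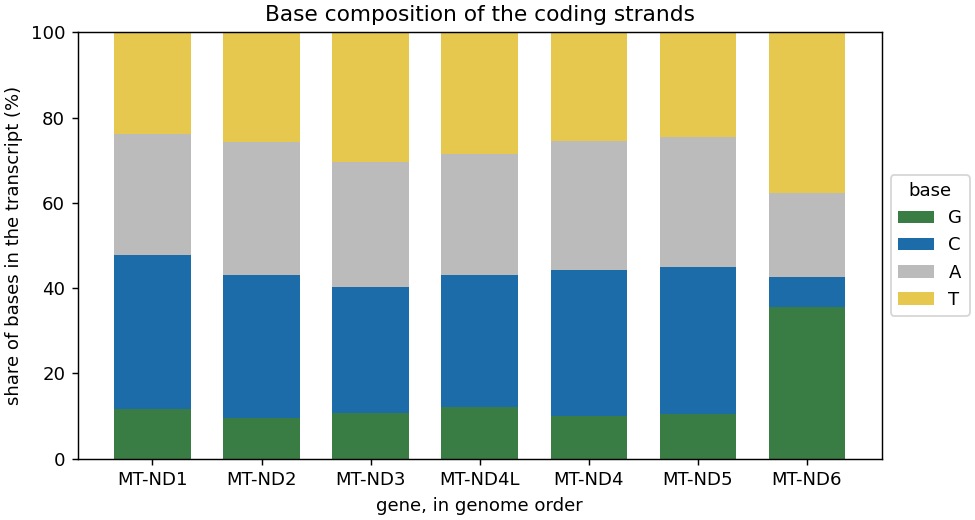
Share of each base (percent, stacked to 100) in the transcript of each gene, genes in genome order from left to right. The 6 plus-strand transcripts hold 9.50% to 12.1% G, and MT-ND6 at the right holds 35.6%.

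All members were abundant. Together they held 2.24%, 2.30% and 2.25% of all TPM in replicates 1, 2 and 3, a mean of 2.26% ± 0.0361 (SD, n = 3). In estimated reads they held less, 0.965% ± 0.0188 (SD, n = 3), because TPM gives short transcripts more weight per read. Each member lay above 1 TPM by limma's moderated test with Benjamini-Hochberg adjustment over 21990 symbols (7 of 7 called, highest adjusted p = 1.49e-08). The same call was reached by 58.5% of all symbols tested. By mean TPM, 5 members stood among the 50 most abundant of all symbols, with MT-ND4L at rank 10 and MT-ND3 at rank 13. MT-ND5 stood at rank 105 and MT-ND6 at rank 149.

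MT-ND2, MT-ND4 and MT-ND5 encode the large antiporter-like subunits of the membrane arm, through which protons are pumped. MT-ND4 had 3646 TPM in replicate 1, 3717 in replicate 2 and 3596 in replicate 3 (3653 ± 60.9 TPM, mean ± SD, n = 3). MT-ND2 was listed at 3396, 3537 and 3433 TPM (3455 ± 72.8 TPM). MT-ND5, the longest member at 1812 bases, was listed at 1566, 1593 and 1533 TPM (1564 ± 29.95 TPM). MT-ND4 and MT-ND2 were thus close to each other, and MT-ND5 was far below both in every library. The ratio of MT-ND4 to MT-ND5 was 2.33, 2.33 and 2.34 in replicates 1, 2 and 3.

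MT-ND1 encodes the subunit that joins the membrane arm to the hydrophilic arm, beside the ubiquinone site. It was listed at 3088, 3111 and 2953 TPM (3050.5 ± 85.2 TPM, SD, n = 3). Its highest library lay below the lowest library of MT-ND2.

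MT-ND3, MT-ND4L and MT-ND6 encode small subunits packed between MT-ND1 and the antiporter-like subunits. MT-ND4L was listed at 5052, 5171 and 5425 TPM (5216 ± 191 TPM, SD, n = 3). MT-ND3 was listed at 4688, 4929.9 and 4719 TPM (4779 ± 132 TPM). MT-ND6 was listed at 944, 990 and 820.1 TPM (918 ± 87.9 TPM). The small subunits therefore took both ends of the order, with MT-ND4L and MT-ND3 the highest members and MT-ND6 the lowest. The highest member exceeded the lowest 5.68-fold in mean TPM.

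**Figure D2:**
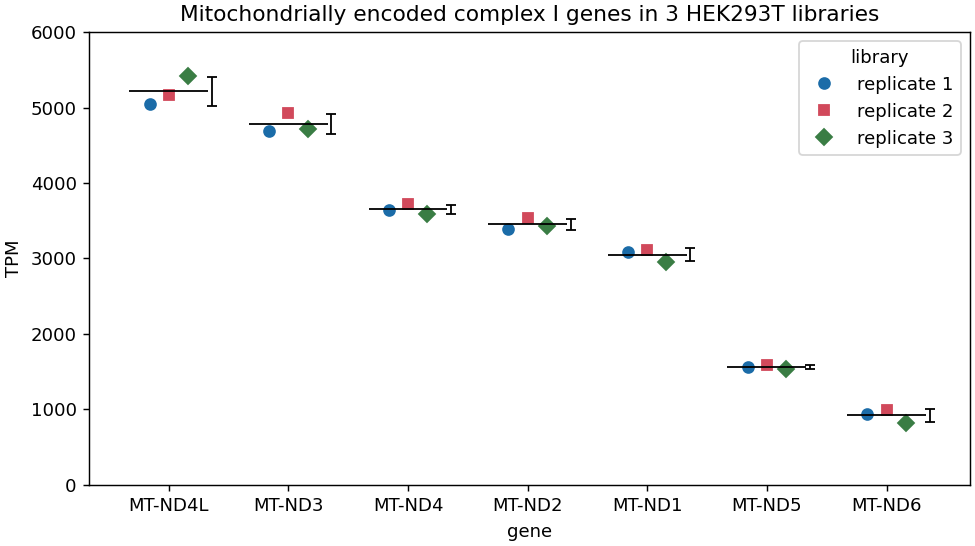
TPM of each gene (vertical axis, from 0) in replicates 1, 2 and 3 (circle, square and diamond), with the mean as a line and the SD as a bracket, n = 3. Genes run from the highest mean, MT-ND4L at 5216 TPM, to the lowest, MT-ND6 at 918 TPM, and no gene's libraries overlap those of its neighbour.

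In the order of mean TPM (MT-ND4L, MT-ND3, MT-ND4, MT-ND2, MT-ND1, MT-ND5, MT-ND6) the 6 neighbouring pairs were compared within libraries on the log2(TPM + 0.01) scale. Each was tested in a limma fit that set every other symbol against the lower gene of the pair, with Benjamini-Hochberg adjustment over all of them. The order itself came from the means of the same 3 libraries, so the direction of each difference was set by the ranking, and the tests bear only on its size against the spread. All 6 pairs passed, with the first gene above the second in 3 of 3 libraries each. In TPM, MT-ND1 exceeded MT-ND5 by a log2 difference of 0.96 ± 0.02 (SE, limma adjusted p = 3.76e-08), the largest of the 6, where 0.459% of the symbols tested lay above MT-ND5. MT-ND5 exceeded MT-ND6 by 0.77 ± 0.14 (limma adjusted p = 2.03e-08), and 0.614% lay above MT-ND6. MT-ND3 exceeded MT-ND4 by 0.39 ± 0.02 (limma adjusted p = 2.54e-06), and 0.091% lay above MT-ND4. MT-ND2 exceeded MT-ND1 by 0.18 ± 0.03 (limma adjusted p = 0.000853), and 0.15% lay above MT-ND1.

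The other 2 pairs were the closest, and their calls depended on the fit. MT-ND4L exceeded MT-ND3 by 0.13 ± 0.04 (SE, limma adjusted p = 0.0139), with 0.0455% of symbols called above MT-ND3. This call was lost without replicate 3 (log2 difference 0.09, limma adjusted p = 0.275) and when limma's mean-variance trend was dropped, which leaves the difference itself at 0.13 (adjusted p = 0.0936). MT-ND4 exceeded MT-ND2 by 0.08 ± 0.02 (limma adjusted p = 0.00868), with 0.109% called above MT-ND2. The call was lost without replicate 3, where the log2 difference was 0.09 (limma adjusted p = 0.109), and without the trend, at an unchanged 0.08 (adjusted p = 0.118). It was also lost when reads of pseudogene copies were added to the members (log2 difference 0.03, limma adjusted p = 0.164). The spread of the lower gene enters every difference of its fit, and with it the spread that limma borrows across symbols. In a fit added after the data were seen, with the prior spread taken from the levels, all 6 pairs were called, and the adjusted p (limma prior, Benjamini-Hochberg) was far higher for MT-ND5 over MT-ND6, at 6.38e-05. It was lower for the closest pairs, at 0.0102 for MT-ND4L over MT-ND3 and 0.00201 for MT-ND4 over MT-ND2. An exact sign permutation test over 3 libraries cannot give a two-sided p under 0.25.

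The place of the shortest members turned on the length by which reads were divided. Effective length, which allows for positions where fragments cannot start, was 112 of 297 bases for MT-ND4L (37.8%) and 151 of 346 bases for MT-ND3 (43.7%). For MT-ND6 it was 59.8% of the length, and for the other members 77.6% to 88.2%. The values were therefore also expressed per annotated length, rescaled to the same library total as TPM. On that scale MT-ND4L averaged 2582 ± 95.9 and MT-ND3 2733 ± 75.7, below MT-ND4 at 4039.7 ± 66.4, MT-ND2 at 3595 ± 76.3 and MT-ND1 at 3099.99 ± 85.2 (SD, n = 3). MT-ND5 at 1806 ± 34.04 and MT-ND6 at 719 ± 68.5 remained the lowest members, in that order. MT-ND4 was then the highest, and exceeded MT-ND6 5.62-fold. The step from MT-ND5 to MT-ND6 became larger than that from MT-ND1 to MT-ND5, with log2 differences of 1.33 and 0.78.

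The bicistronic pair shows the size of this dependence. The ratio of MT-ND4L to MT-ND4 was 1.39, 1.39 and 1.51 in TPM in replicates 1, 2 and 3 (1.43 ± 0.0696, SD, n = 3). Per annotated length it was 0.620, 0.623 and 0.675 (0.640 ± 0.0312). MT-ND4L was therefore above MT-ND4 in all 3 libraries on the deposited scale and below it in all 3 on the other. The log2 difference of MT-ND3 over MT-ND4 likewise turned, to -0.56 ± 0.02 (SE, limma adjusted p = 4.08e-08), and that of MT-ND4L over MT-ND3 to -0.08 ± 0.03 (limma adjusted p = 0.0472). No value here shows which scale is closer to the number of molecules.

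**Figure D3:**
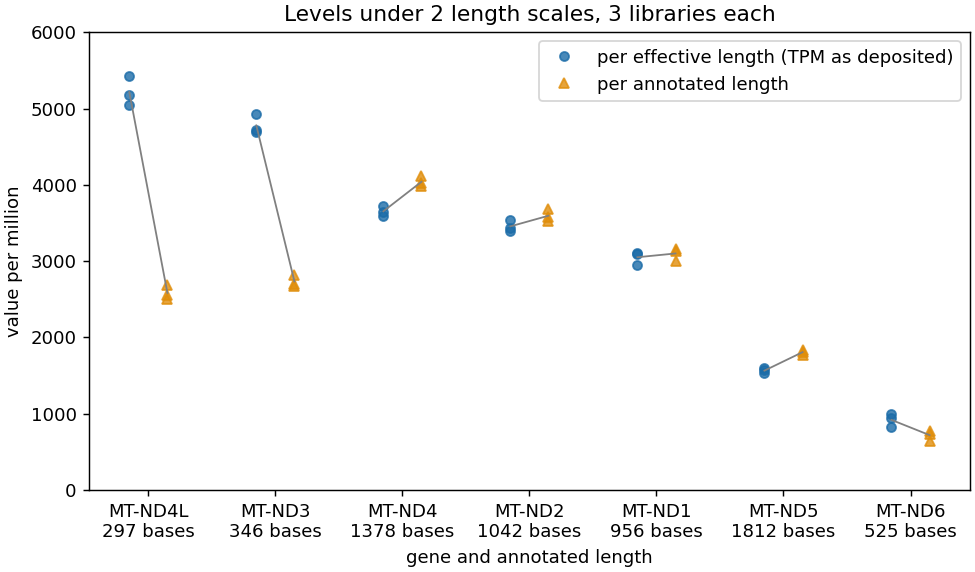
Value of each gene in the 3 libraries, per effective length as deposited (circles) and per annotated length (triangles), with a line joining the means. MT-ND4L moves from a mean of 5216 to 2582 and MT-ND3 from 4779 to 2733, while MT-ND4, MT-ND2, MT-ND1, MT-ND5 and MT-ND6 keep their order.

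MT-ND6 was the lowest member under either scale. Its log2 difference from the mean log2 level of the 6 plus-strand members was -1.89 ± 0.05 (SE, limma adjusted p = 4.69e-07). MT-ND6 lay below that mean in 3 of 3 libraries, and the geometric mean of the others was 3.70 times its level. Of all symbols tested, 99.9% lay below the same mean. Per annotated length the difference was -2.01 ± 0.05 (limma adjusted p = 1.41e-08). Against MT-ND5 alone, its neighbour in the genome, MT-ND6 lay at 0.603, 0.621 and 0.535 times the TPM in replicates 1, 2 and 3.

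2 features of the assay touch the MT-ND6 value. RNA was captured by its poly(A) tail, and tail length was not measured here, so its part in the MT-ND6 level was not tested. The kit was directional, but whether quantification used the strand is not given in the sources used here. RNA of the opposite strand runs through the MT-ND6 region, and if strand was not used it cannot be told apart from MT-ND6 mRNA. No transcript of the table matched to the annotation held the reverse complement of any 31-base word of the 7 members (0 words for each), so such reads would have had no annotated opposite-strand transcript to go to.

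The members differed in how much they varied between libraries. Replicate 2 held the highest TPM for 6 of 7 members, all except MT-ND4L, which was highest in replicate 3. It was also highest for MT-CO1, MT-CO2, MT-CO3, MT-CYB, MT-ATP6 and MT-ATP8, so this was not particular to the members. The share of all symbols highest in replicate 2 was not computed. The coefficient of variation (CV) was 1.67% for MT-ND4, 1.91% for MT-ND5, 2.11% for MT-ND2, 2.76% for MT-ND3, 2.79% for MT-ND1 and 3.65% for MT-ND4L. The median CV of the 1640 symbols with a mean of at least 100 TPM was 1.85%, and among the members only MT-ND4 lay below it. MT-ND6 stood apart with a CV of 9.57%, which 6 of those 1640 symbols, MT-ND6 included, reached. Its TPM was 10.7% below its mean in replicate 3 (-10.7%) and 7.83% above it in replicate 2. The reads behind it were estimated at 7022, 7484 and 6173 in replicates 1, 2 and 3, for which counting error alone gives a CV of 1.20%. For the other members counting error came to 0.314% to 0.845%. These figures cover counting error only.

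**Figure D4:**
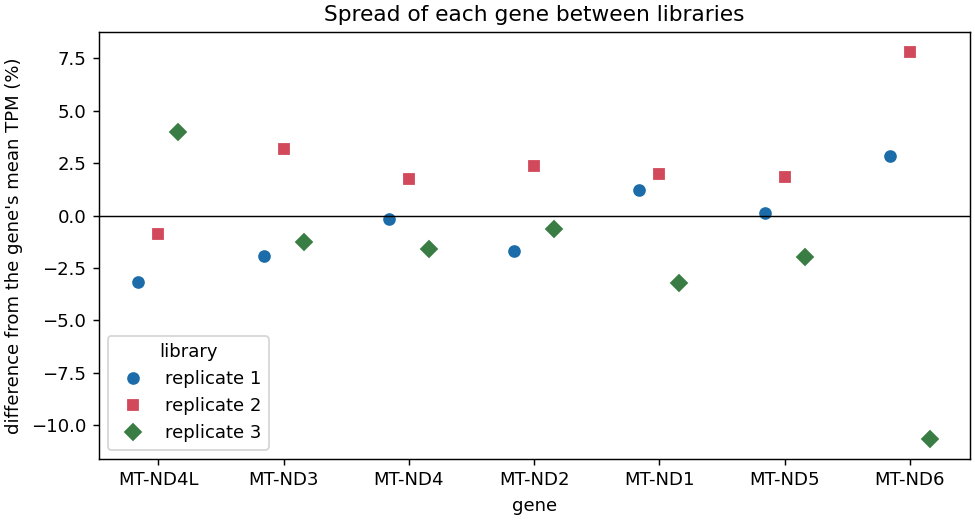
Difference of each library's TPM from the gene's own mean (percent) in replicates 1, 2 and 3 (circle, square and diamond), genes in order of mean TPM. The points of MT-ND6 run from -10.7% to 7.83%, and those of the other genes lie within 4.01% of 0.

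The mitochondrially encoded members were set against the nuclear-encoded subunits of the same enzyme, all 37 of which were in the table. Summed over the genes, the 7 members held 2.26% ± 0.0361 of all TPM and the 37 nuclear-encoded subunits 0.821% ± 0.00313 (SD, n = 3), a ratio of 2.76. The members ranged from 918 to 5216 TPM in their means. The nuclear-encoded subunits ranged from 50.8 ± 0.972 TPM for NDUFV3, an accessory subunit of the NADH-oxidising module, to 585 ± 11.03 TPM for NDUFS5, an accessory subunit of the membrane arm. The groups did not overlap: the lowest member, MT-ND6, was 1.57 times the mean of NDUFS5 (1.53 times per annotated length). Most other symbols also lay below MT-ND6, at 99.2% of those tested by limma. NDUFS5 stood at rank 223 by mean TPM. The median nuclear-encoded subunit stood at 154, 161 and 153 TPM in replicates 1, 2 and 3.

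Each of the 7 members lay above that median in 3 of 3 libraries by limma's moderated test with Benjamini-Hochberg adjustment (highest adjusted p = 3.93e-08), a call reached by 4.14% of all symbols tested. MT-ND4L was 33.4 times the median subunit (log2 difference 5.06 ± 0.04, SE), MT-ND3 30.7 times, MT-ND4 23.4 times, MT-ND2 22.2 times and MT-ND1 19.6 times. MT-ND5 was 10.03 times the median and MT-ND6 5.87 times (log2 difference 2.55 ± 0.05). Per annotated length all 7 were still called, but MT-ND4 led at 26.3 times the median, and MT-ND4L and MT-ND3 stood at 16.8 and 17.8 times. Of the 37 nuclear-encoded subunits, 17 lay above their own median, 15 below it and 5 were not called. The median was taken over these same genes, so a near-even split was fixed in advance. The median log2 difference was 4.47 over the members and -5.20 over all symbols tested.

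The members were lower than most of the other 6 mitochondrially encoded protein genes. All 7 lay below the mean log2 level of MT-CO1, MT-CO2, MT-CO3, MT-CYB, MT-ATP6 and MT-ATP8 (limma adjusted p at most 4.26e-05), as did 100% of all symbols tested when rounded to 3 digits (21984 of 21990). Taken in TPM as a geometric mean, that level was reached to 75.1% by MT-ND4L and to 68.8% by MT-ND3. MT-ND4, MT-ND2 and MT-ND1 reached 52.6%, 49.8% and 43.9%, MT-ND5 22.5% and MT-ND6 13.2%. Per annotated length all 7 again lay below, but the order turned, with MT-ND4 at 70.8%, MT-ND2 at 62.98% and MT-ND1 at 54.3% above MT-ND3 at 47.9% and MT-ND4L at 45.2%. Among the other 6 genes, MT-CYB, the cytochrome b of complex III, was lowest in TPM. It stood at 3595 ± 64.7 TPM, inside the range of the members and close to MT-ND4. Per annotated length MT-ATP8, the highest of the 6 in TPM, was lowest at 3376 ± 146, and MT-CYB stood at 3823 ± 67.6. MT-CO1, the catalytic subunit of cytochrome c oxidase, was 1.85 ± 0.00679 times MT-ND4 (SD, n = 3). In all, the 7 members held 34.2% ± 0.264 of the TPM of the 13 mitochondrially encoded protein genes.

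**Figure D5:**
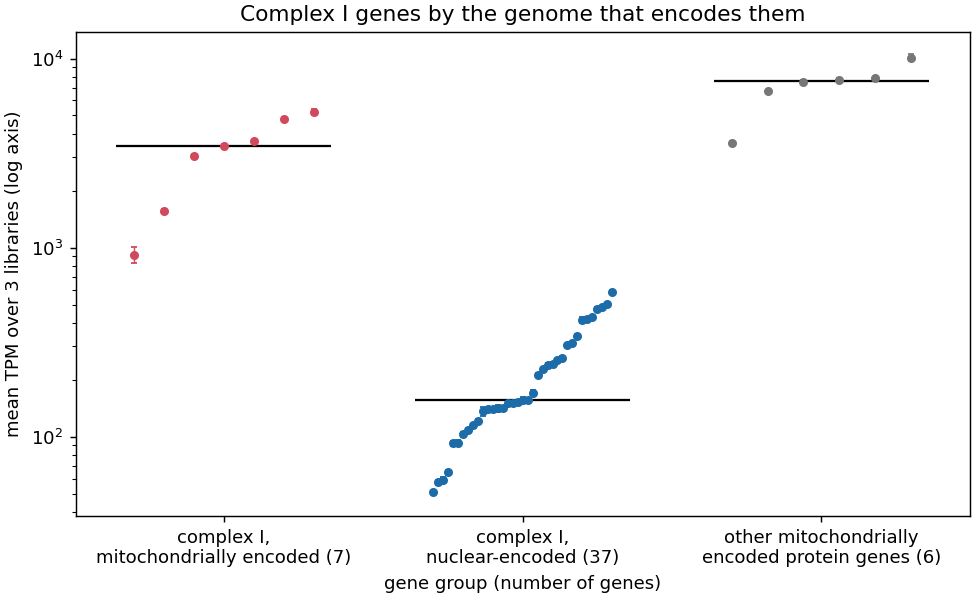
Mean TPM over 3 libraries (log axis) of the 7 mitochondrially encoded complex I genes, the 37 nuclear-encoded complex I subunits and the other 6 mitochondrially encoded protein genes, each point a gene with its SD (n = 3) and each line the group's median. The lowest mitochondrially encoded complex I gene, at 918 TPM, lies above the highest nuclear-encoded subunit, at 585 TPM. By limma, 99.2% of all symbols tested lay below that lowest gene.

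The listed genes that build complex I around the members, and those that make and process mitochondrial RNA, were detected at lower levels. Each one matched in the table had a lower mean TPM than the lowest member, MT-ND6. By limma 99.2% of the symbols tested lay below MT-ND6, so this was not particular to these lists. All 16 complex I assembly factors lay above 1 TPM by limma, a call reached by 58.5% of all symbols tested. They ranged from 15.1 ± 1.60 TPM for NUBPL, which delivers iron-sulfur clusters, to 224 ± 4.49 TPM for NDUFAF8. Of these, 14 lay below the median nuclear-encoded subunit and 2 above it, against 95.3% of all symbols called below. TIMMDC1, which assists assembly of the membrane arm part around MT-ND1, stood at 123.96 ± 0.0545 TPM, and ACAD9, which takes part in assembly of the part around MT-ND2, at 50.6 ± 1.44 TPM. Of 25 symbols listed for mitochondrial RNA synthesis and maturation, 23 were matched in the table, and the other 2 were alternative names of genes listed under another symbol. All 23 lay above 1 TPM by the same call as the assembly factors. Against the median nuclear-encoded subunit, 20 lay below, 2 above and 1 was not called. SLIRP was highest at 492 ± 5.08 TPM, and its partner LRPPRC, with which it stabilises plus-strand mitochondrial mRNAs, stood at 108 ± 1.39 TPM. The mitochondrial RNA polymerase gene POLRMT stood at 71.5 ± 1.69 TPM and the poly(A) polymerase gene MTPAP at 18.5 ± 0.999 TPM. GRSF1, an RNA-binding protein of mitochondrial RNA granules that binds MT-ND6 RNA, stood at 102 ± 0.518 TPM. The termination factor gene MTERF1 was lowest at 16.8 ± 1.84 TPM.

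Nuclear pseudogene copies of the members took few of the reads. The table held 213 symbols named as such copies, of which 184 were listed at 0 in all 3 libraries and 9 were above 0 in each. Over the deposited estimated counts, the copies held 2562 reads, 0.804% of the 318843 reads of the members. Nearly all of these belonged to MTND2P28, with 2437 estimated reads and 123, 121 and 125 TPM in replicates 1, 2 and 3. Next came MTND1P23 at 15.5, 17.5 and 19.9 TPM, and MTND1P10, MTND4P12 and MTND3P22 had means of 0.834, 0.813 and 0.744 TPM. No copy of MT-ND4L was above 0 in any library (24 copies), and that of MT-ND6 highest in level, MTND6P4, had a mean of 0.268 TPM.

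MTND2P28 (chr1:629640-630683) is an unprocessed pseudogene that aligned to the whole of MT-ND2 with 17 differences in 1042 bases (98.4% identity) and a longest identical run of 266 bases. Of the 1012 31-base words of MT-ND2, 576 (56.9%) were also present in MTND2P28. The 60-base window with the most differences is shown, to make visible how little tells the gene and its copy apart. It covers chrM:4899-4958 in MT-ND2 and chr1:630069-630128 in MTND2P28, with the 4 differing bases in capitals.
MT-ND2: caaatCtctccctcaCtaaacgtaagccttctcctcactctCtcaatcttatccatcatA
MTND2P28: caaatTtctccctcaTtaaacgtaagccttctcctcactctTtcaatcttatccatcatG
Counted from 1 at the 5′ end of MT-ND2, and with the base of MT-ND2 first, these are C435T, C445T, C471T and A489G. Reads of the identical stretches cannot be assigned to either by sequence alone, so the split of reads between MT-ND2 and MTND2P28 is uncertain. Adding the reads of all copies to their members raised MT-ND2 enough to end the call between it and MT-ND4, as given above, and left MT-ND2 above MT-ND1 (log2 difference 0.23 ± 0.03, SE, limma adjusted p = 0.000256).

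The other members shared less sequence with other symbols. The share of 31-base words found in transcripts of another symbol was 30.7% for MT-ND6, 28.2% for MT-ND1, 21.2% for MT-ND4, 16.1% for MT-ND4L, 15.1% for MT-ND5 and 3.48% for MT-ND3. For MT-ND6 most of the shared words lay in MTND6P4, which was assigned 2.02 estimated reads, and for MT-ND1 in MTND1P23, which was assigned 63.5. The reads of the copies came to 3.66% of those of MT-ND2, 0.140% of those of MT-ND1 and at most 0.0286% of those of any other member.

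The symbols nearest in level, by the mean absolute difference of log2 TPM over the 3 libraries, are given for 5 members. They were RPL37A for MT-ND4L (0.05), NPM1 for MT-ND3 (0.05), RPL8 for MT-ND4 (0.01), RPS19 for MT-ND2 (0.03) and RPS16 for MT-ND1 (0.01). All of these encode ribosomal proteins except NPM1, which encodes the nucleolar protein nucleophosmin. The share of ribosomal protein genes among all symbols at these levels was not computed. MT-ND4 averaged 3653 ± 60.9 TPM and RPL8 3622 ± 31.5 TPM (SD, n = 3). With 3 libraries of 1 group this likeness describes level only.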

How the data were processed

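Per the submitters' processing notes, the authors used kallisto and the hg38 build. The kallisto version, its options, its strand setting and the transcript release are not given in the sources used here. TPM per library, scaled by the authors, fills the deposited table, and, per the file headers, length, effective length and 1 column of estimated counts that names no library. Rescaled by effective length, those estimated counts gave replicate 1's deposited TPM (largest relative deviation 1.08e-05), so no count test was run. The single effective length was used for all libraries.

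TPM was summed per symbol. Limma 3.58.1 in R 4.3.3 fitted log2(TPM + 0.01), or its within-library difference from another level, over symbols above 0 in at least 1 library, with a mean-variance trend, Benjamini-Hochberg adjustment over all of them and a threshold of 0.05. Depth was estimated from low values of transcripts over 1000 bases, of which 27.98% to 29.1% lay within 0.02 reads of a whole number. Identifiers matched GENCODE release 29 for 90.1% of 185299 transcripts, all with the same length. Sequences and positions are from that release, and alignments used edlib 1.3.9.post1. The 2 mitochondrial rRNA symbols, MT-RNR1 and MT-RNR2, matched no symbol in the table and were not analysed here. Shares of all TPM and ranks therefore do not include them under those symbols.

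The members and lists were chosen with earlier results of these data known. Named genes were the members, the nearest symbol in level to each (for MT-ND5 and MT-ND6 it is not reported here), the 5 pseudogene copies of highest mean (MTND6P4 was added after its value was seen), and from each list the highest, the lowest and those a sentence is about. Alternatives were pseudocounts of 0.1 and 1, a mean of at least 1 TPM, no trend, annotated length, added pseudogene reads, other levels and references, and leaving out each replicate.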

Additional observations from a re-analysis of the deposited data

How the results depend on the processing

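The counts of members above 1 TPM, above the median nuclear-encoded subunit and below the other mitochondrially encoded genes were 7 of 7 under every alternative run for each. MT-ND6 stayed below the mean of the plus-strand members by a log2 difference between -1.93 and -1.81 when each replicate was left out. The members' share of TPM ran from 2.24% to 2.28% without 1 replicate, was 1.86% per annotated length, and was 34.2% of the 13 mitochondrially encoded protein genes. Neighbouring pairs called in the order of mean TPM numbered 6 as reported, 4 to 6 without 1 replicate, 4 without the trend, 4 per annotated length and 5 with pseudogene reads added. Per annotated length MT-ND3 over MT-ND4 and MT-ND4L over MT-ND3 turned to log2 differences of -0.564 and -0.0822, since the effective lengths of the shortest members are the smallest part of their lengths. Of the values recomputed for single members and pairs, 284 kept their direction and call, 5 lost the call and 2 turned. All those that lost the call or turned were neighbouring pairs. Most of the 284 set a member against a level or reference far from it, so the total says little about the stability of the order. The cause of the lost calls was not tested. No paired analysis was possible because the libraries form 1 group, so replicate numbers pair no samples across groups; the differences between genes were taken within each library. For each member the estimated counting error was smaller than the spread between the 3 libraries, and the small number of libraries limits the precision.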

Other observations

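Some ratios between mitochondrially encoded genes were nearly the same in all libraries. MT-CYB over MT-ND5, the plus-strand genes on either side of MT-ND6, was 2.30, 2.29 and 2.30 in TPM (2.30 ± 0.00300, SD, n = 3), and MT-ND4 over MT-ND5 was 2.34 ± 0.00839. MT-ND6 over MT-ND5 was 0.586 ± 0.0456. The other overlapping pair of the genome, MT-ATP8 and MT-ATP6, turned with the length scale as MT-ND4L and MT-ND4 did: MT-ATP8 over MT-ATP6 was 1.34 ± 0.0325 in TPM and 0.499 ± 0.0121 per annotated length. These ratios were chosen after the values were seen and were not tested.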
